A study of Mus musculus with 6 samples.

Results

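The data concern 8 genes that hold back mTORC1, the growth-promoting kinase complex: the sestrins Sesn1, Sesn2 and Sesn3, the stress-induced gene Ddit4, the tuberous sclerosis genes Tsc1 and Tsc2, the mTOR-binding gene Deptor, and Prkab1, which encodes a beta subunit of the energy-sensing kinase AMPK. They were chosen by symbol, with earlier results of these data known, and their symbols were mapped to the Ensembl identifiers of the count files. The files hold 50686 identifiers, of which 16729 passed edgeR's filter on low counts, and all 8 genes were among those that passed. With intermittent compressive force (ICF), 2 of the 8 genes rose, Sesn2 and Sesn3, and 2 fell, Ddit4 and Deptor. Of all genes tested, 3.47% rose and 4.38% fell. Sesn2 passed in all 6 fits with 1 sample left out, Ddit4 in 5, and Sesn3 and Deptor in 2 each. The levels of Sesn1, Tsc1, Tsc2 and Prkab1 did not pass the test.

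All 6 samples were mouse iPSCs reprogrammed from gingival fibroblasts, grown as embryoid bodies, exposed to retinoic acid, moved to gelatin-coated dishes and kept without serum, and their RNA was collected after 24 h. In 3 samples the constructs were loaded with ICF, a force of 1.5 g per square centimetre applied at 0.23 Hz, and the 3 control samples were left unloaded. The labels number the samples of each group as donors 1 to 3, whereas the methods describe independent experiments and no donors, so the number is called the replicate here and the p-values measure the spread between these samples, which may be technical. The constructs were sequenced whole, so fewer cells of a type and less RNA per cell cannot be told apart.

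mTORC1 is switched on at the lysosome by the Rag GTPases when amino acids are present and by Rheb when growth factors are present. Sestrins bind the GATOR2 complex and thereby restrain the Rag branch, with Sesn2 known as a leucine sensor, while Ddit4 (also called REDD1) and the TSC complex restrain Rheb, AMPK acts on the TSC complex and on mTORC1 itself, and Deptor binds mTOR directly. Sesn1 and Sesn2 are known p53 targets, Sesn3 a FoxO target, and Ddit4 a target of HIF-1, the hypoxia factor, with ATF4 as a further inducer of both Sesn2 and Ddit4. The comparison sets the sestrins as a family, of which Sesn1 and Sesn2 are the known p53 targets, against Ddit4, as hypoxia-linked restraint. The inducers named are not a full list, and Sesn2 and Ddit4 share ATF4, so the sides are not fully separate.

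Counted reads on genes ranged from 28711166 to 34194413 per sample. Counts divisible by 4 made up 89.0% of the nonzero counts of ICF replicate 3 and 20.3% to 21.5% elsewhere. In that sample 7 of the 8 genes had such a count, and 20802 genes had a count above 0, against 24340 to 24889 elsewhere. Its total may therefore overstate its depth, and the origin of these counts was not tested. Calls that change without this sample are given for the 8 genes and the listed genes. Between 4.09% and 4.52% of counted lines fell outside genes in replicates 1 and 2, and 6.04% to 6.24% in replicate 3 of both groups. The 10 pluripotency markers listed for the cell type, Pou5f1, Nanog and Sox2 among them, were all measured, with a summed level of 3993 to 4749 CPM (counts scaled to a common library size) in the control and 3706 to 4077 with ICF. Tdgf1, a Nodal co-receptor of that list, was its only call and fell by 0.81 on the log2 scale (adjusted p = 0.0028), while 8.7% of its possible reads match a pseudogene copy. The mesenchyme and fibroblast markers summed to 378 to 438 CPM in the control and 453 to 468 with ICF, without overlap. Most of that sum was Vim (163 and 180 CPM) and Pdgfra (178 and 182 CPM), neither called (adjusted p = 0.3 and 0.75 in edgeR). The fibrillar collagen genes Col1a1 (log2 fold change 0.75, adjusted p = 0.022) and Col3a1 (log2 fold change 0.73, adjusted p = 0.048) rose among 11 tested. A further collagen gene of the list, Col1a2 (log2 fold change 0.61), overlapped between groups and did not pass (adjusted p = 0.42, and 1e-06 with the replicate block). The median of this list was 0.14, and its values ran from -0.12 to 0.75. Neural markers summed to 122 to 132 and 119 to 129 CPM with no call among 7 (4 at an unadjusted p under 0.05 in edgeR and 1 by DESeq2), and endoderm markers to 904 to 1124 and 1036 to 1230 CPM with 1 call among 8, the fall of Sox17 (log2 fold change -0.34, adjusted p = 0.045), whose exons overlap a gene on the other strand. Of 7 blood and immune markers, Cd68 and Csf1r passed the filter, the haemoglobin gene Hbb-bt was at 0 in every sample, and the 7 summed to 19.9 to 21.7 CPM in the control and 17.8 to 27.9 CPM with ICF. With the replicate block the pluripotency markers had 3 falls, the mesenchyme markers 4 rises, and the neural and endoderm markers 3 rises and 1 fall each, while without ICF replicate 3 Col3a1 (adjusted p = 0.07) and Sox17 (adjusted p = 0.071) did not pass. The part of these markers in the results was not tested.

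The promoters of Ddit4, Sesn2 and Sesn3, the 3 called genes that the comparison sets against each other, are printed to show which of the element letters searched they hold. They are the 250 bases before the start site, from RefSeq on GRCm38.p6, read 5′ to 3′ on the gene's strand: Ddit4 at chr10:59951771-59952020 on the minus strand, Sesn2 at chr4:132510457-132510706 on the minus strand and Sesn3 at chr9:14276051-14276300 on the plus strand. Capitals mark the core letters of a hypoxia element.
Ddit4: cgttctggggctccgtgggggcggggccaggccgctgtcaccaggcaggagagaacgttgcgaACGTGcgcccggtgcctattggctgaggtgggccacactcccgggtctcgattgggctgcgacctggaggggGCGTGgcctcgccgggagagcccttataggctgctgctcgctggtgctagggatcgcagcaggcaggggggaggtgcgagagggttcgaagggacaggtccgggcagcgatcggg
Sesn2: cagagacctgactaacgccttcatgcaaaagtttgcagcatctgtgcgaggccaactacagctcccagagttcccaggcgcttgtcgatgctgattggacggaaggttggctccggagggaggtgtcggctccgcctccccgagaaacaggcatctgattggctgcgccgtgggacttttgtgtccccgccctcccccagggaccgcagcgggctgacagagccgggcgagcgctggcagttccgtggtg
Sesn3: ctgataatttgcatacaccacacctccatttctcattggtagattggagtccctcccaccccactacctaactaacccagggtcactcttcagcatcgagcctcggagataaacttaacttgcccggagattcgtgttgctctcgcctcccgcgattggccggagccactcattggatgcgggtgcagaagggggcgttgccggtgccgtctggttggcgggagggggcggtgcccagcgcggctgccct
The Ddit4 promoter held ACGTG 187 bases before the start and GCGTG 115 bases before it. The Sesn2 and Sesn3 promoters held neither.

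The letters searched, on both strands and over 300 bases (250 before and 50 after the start), were ACGTG and GCGTG for hypoxia elements, CACGTG for an E-box, which contains ACGTG, TTGCATCA for ATF4, TGTTTAC for FoxO, and for p53 a CATG, 6 bases of any kind and another CATG. RefSeq gave 8 promoters for 7 of the 8 genes, with 2 start sites for Sesn1 and none for Deptor. Of 32851 promoters of this length, 19.6% held ACGTG, 32.4% GCGTG, 7.15% CACGTG, 0.895% TTGCATCA, 3.65% TGTTTAC and 0.712% the p53 letters. The Ddit4, Sesn2 and Sesn3 promoters held no match to the E-box, ATF4, FoxO or p53 letters. Among the other genes, Sesn1 held TGTTTAC 22 bases after its first start and GCGTG 147 and 55 bases before its second. GCGTG lay 6 bases before the start of Tsc1 and 65 bases before that of Tsc2. Prkab1 held none of the 6. A match is a description of letters and not a measured site, and no match says only that these letters are not in this window.

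Sesn2, on chromosome 4 of GRCm38 from 132492032 to 132510501, had the clearest rise. Control replicates 1, 2 and 3 had 147, 156 and 154 CPM, and ICF replicates 1, 2 and 3 had 210, 232 and 227 CPM. Every ICF sample lay above every control sample, and the lowest ICF sample exceeded the highest control sample by far more than either group's own range. The mean level went from 152.5 ± 4.76 CPM (SD, n = 3) to 223 ± 11.7 CPM (SD, n = 3), a 1.46-fold level. On the log2 scale the change was 0.55 (standard error 0.06, 95% interval 0.41 to 0.69), and the adjusted p over all genes was 0.00182 in edgeR's quasi-likelihood test. Within replicate numbers 1, 2 and 3 the log2 differences were 0.51, 0.57 and 0.56, so the 3 numbers gave nearly the same size. Leaving out any 1 of the 6 samples kept the log2 fold change between 0.52 and 0.60 and the adjusted p between 0.00228 and 0.0178.

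Sesn3, on chromosome 9 from 14275067 to 14333101, also rose, by less. Control samples stood at 51.5, 54.1 and 50.1 CPM, ICF samples at 66.3, 65.7 and 62.4 CPM. The groups did not overlap, and all 3 ICF samples lay within a narrow band. From a mean of 51.9 ± 2.06 to 64.8 ± 2.10 CPM (SD, n = 3 each), the change was 0.32 on the log2 scale, with a standard error of 0.06 and a 95% interval of 0.18 to 0.47 (adjusted p = 0.0195 in edgeR). Its log2 differences within numbers 1, 2 and 3 were 0.37, 0.28 and 0.32. The call was lost without control replicate 1 (adjusted p = 0.0992), control replicate 2 (0.0781), ICF replicate 1 (0.0903) or ICF replicate 2 (0.0688), while the log2 fold change stayed between 0.30 and 0.35.

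Sesn1, on chromosome 10 from 41809935 to 41908424, did not share this direction. The control replicates had 30.4, 29.9 and 27.8 CPM and the ICF replicates 27.7, 26.9 and 21.4 CPM. The ICF samples were all lower, but the nearest control and ICF samples nearly touched, and ICF replicate 3 was the lowest of the 6. On the log2 scale the change was -0.21 (standard error 0.11, 95% interval -0.45 to 0.03), and the adjusted p of 0.253 in edgeR did not pass. With the replicate number as a block, so that each ICF sample was compared with the control sample of its number, the log2 fold change was -0.22 and passed (adjusted p = 0.023). Without ICF replicate 3 it was -0.10 (adjusted p = 0.469), and with the block and number 3 of both groups left out it was -0.14 (adjusted p = 0.206). The within-number log2 differences were -0.13, -0.15 and -0.38. The 3 sestrins therefore gave 2 rises and 1 level that passed only under the block, in the lower direction.

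Ddit4, on chromosome 10 from 59949669 to 59951834, had the largest change of the 8 genes, a fall. Unloaded samples had 164, 162 and 138 CPM, and loaded samples had 64.3, 74.7 and 102.5 CPM. The groups did not overlap, and in both groups replicate 3 lay nearest to the other group. The mean went from 155 ± 14.6 to 80.5 ± 19.7 CPM (SD, n = 3 each), or 0.520 of the control level. On the log2 scale the change was -0.94, with a standard error of 0.16, a 95% interval of -1.29 to -0.59 and an adjusted p of 0.00966 in edgeR. Within numbers 1, 2 and 3 the log2 differences were -1.35, -1.11 and -0.43, so the size of the fall varied by number while its direction did not. Without ICF replicate 3 the log2 fold change was -1.15 (adjusted p = 0.000477), and without control replicate 2 it was -0.91 and no longer passed (adjusted p = 0.055).

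**Figure D1:**
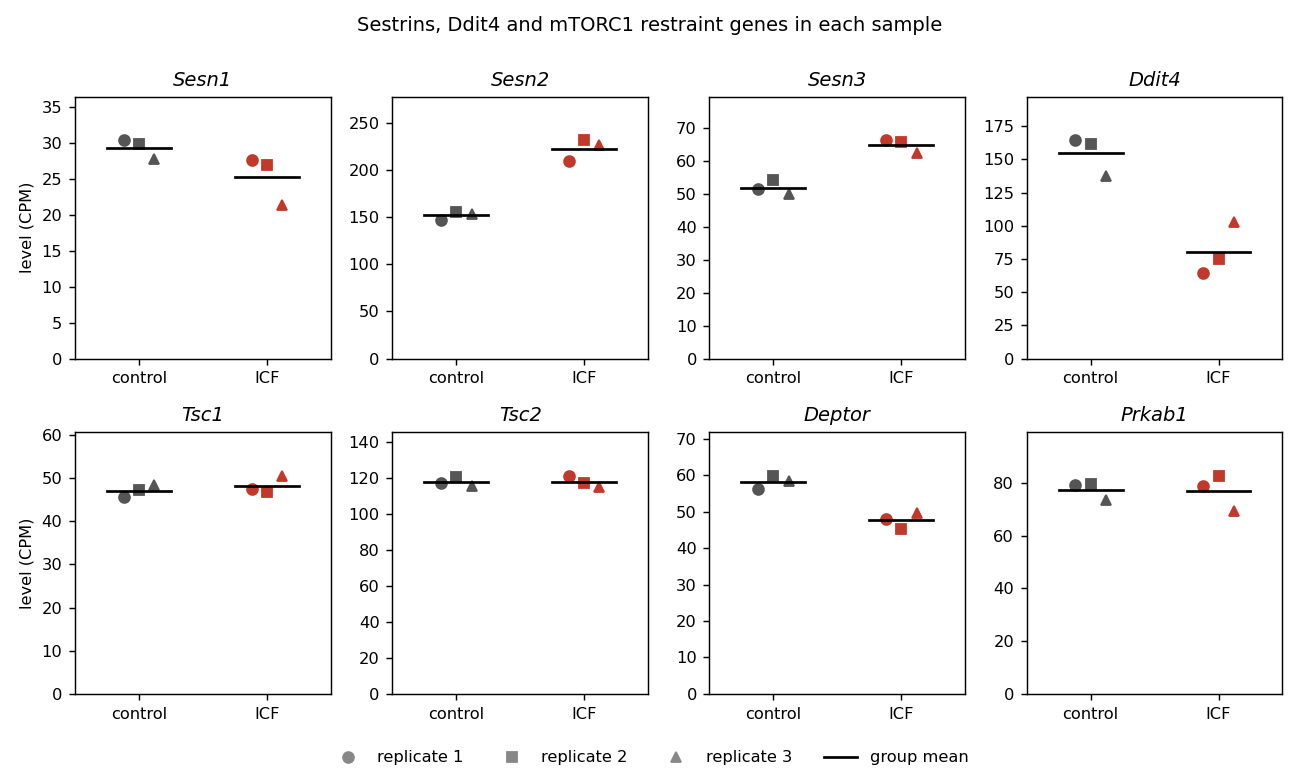
Level in CPM of each of the 8 genes (one panel per gene, vertical axes from 0) in the 3 control and 3 ICF samples, with a marker shape for each replicate and a bar for the group mean. Sesn2 and Sesn3 are higher with ICF and Ddit4 and Deptor lower without overlap, Sesn1 is lower with a small gap, and Tsc1, Tsc2 and Prkab1 overlap.

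The genes of the TSC complex, onto which Ddit4 signals, were called in neither direction. Tsc1, on chromosome 2 from 28641228 to 28691167, encodes the stabilising partner of the complex and had 45.5, 47.2 and 48.4 CPM without load and 47.4, 46.8 and 50.5 CPM with it. Tsc2, on chromosome 17 from 24595816 to 24632630, encodes the part that switches off Rheb and had 117, 120 and 115.5 CPM without load and 121, 117 and 115 CPM with it. The groups overlapped for both genes. For Tsc1 the log2 fold change was 0.04 with a 95% interval of -0.11 to 0.18 (adjusted p = 0.774 in edgeR). For Tsc2 the interval was -0.13 to 0.13 around a log2 fold change of 9.41e-05 (adjusted p = 0.999 in edgeR), and 10% of its possible 75-base reads match Pkd1 on the other strand. These intervals contain 0 and do not show that the levels were equal.

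Deptor, on chromosome 15 from 55112317 to 55259271, encodes a protein that binds and inhibits mTOR in both of its complexes. The 3 control samples had 56.3, 59.9 and 58.5 CPM, and the 3 ICF samples 48.0, 45.2 and 49.6 CPM. All 3 ICF samples were lower, with a clear gap to the control. The mean went from 58.2 ± 1.82 to 47.6 ± 2.19 CPM (SD, n = 3 each), and the change was -0.29 on the log2 scale, with a standard error of 0.07 and a 95% interval of -0.44 to -0.14 (adjusted p = 0.0324 in edgeR). The log2 fold change lay between -0.32 and -0.25 when 1 sample was left out, but the call was lost without control replicate 1 (adjusted p = 0.0956), control replicate 2 (0.159), ICF replicate 1 (0.117) or ICF replicate 2 (0.109). Prkab1, on chromosome 5 from 116013586 to 116024508, is reported as a p53 target besides its role in AMPK. Control levels were 79.2, 79.6 and 73.5 CPM, ICF levels 78.9, 82.7 and 69.2 CPM. Its groups overlapped, and the 2 lowest samples were the replicates numbered 3. The log2 fold change was -0.01 with a 95% interval of -0.19 to 0.17 (adjusted p = 0.956 in edgeR).

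**Figure D2:**
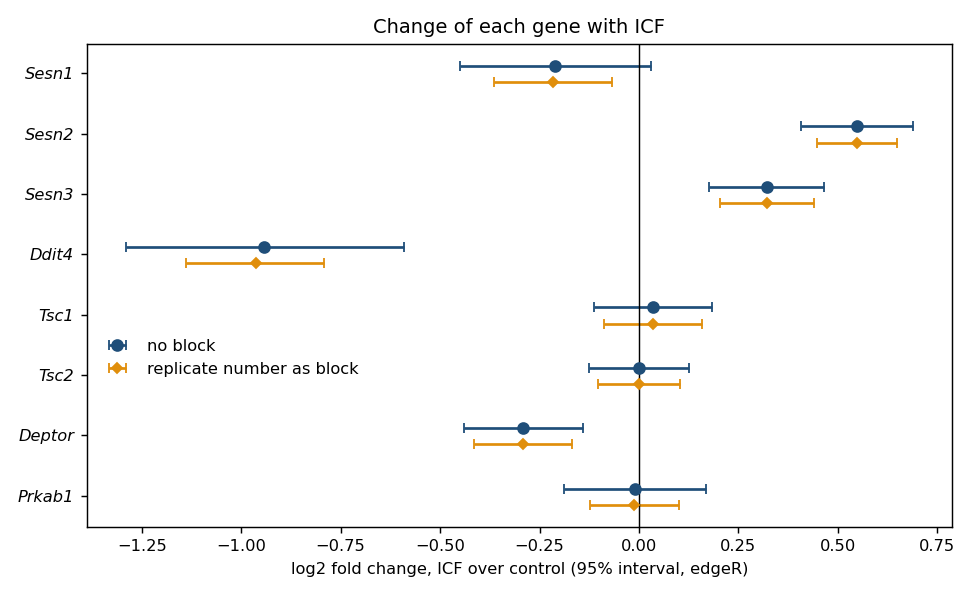
Log2 fold change of ICF over control with its 95% interval for each of the 8 genes, from edgeR without a block (circles) and with the replicate number as a block (diamonds). Sesn2 and Sesn3 lie above 0 and Ddit4 and Deptor below it in both, the Sesn1 interval leaves 0 only with the block, and those of Tsc1, Tsc2 and Prkab1 contain 0 in both.

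Of the 8 genes, 2 were called higher, beside 3.47% of all genes tested, and 2 lower, beside 4.38%. With the replicate block 2 were higher, where 14.6% of all genes were, and 3 were lower, where 15.3% were, Sesn1 being the addition. The groups did not overlap for 2 genes that were higher with ICF and 3 that were lower, and among all genes tested this held for 15.6% and 15.7%. No test compared these counts with those of all genes, and the 8 genes were chosen with earlier results of these data known. The median log2 fold change of all 16729 genes was 0.00.

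Levels of different genes can be set side by side only per length, so the CPM were divided by the length of each gene's exons in kilobases. In the control, Ddit4 was the highest of the 8 genes at 88.1 ± 8.34 CPM per kilobase and Sesn2 the second at 43.9 ± 1.37 CPM per kilobase (SD, n = 3). With ICF this order turned, with Sesn2 at 64.2 ± 3.36 and Ddit4 at 45.9 ± 11.2 CPM per kilobase (SD, n = 3). In single samples Ddit4 had 93.7, 92.1 and 78.5 CPM per kilobase without load, above the 42.3 to 44.9 of Sesn2, and 36.6, 42.5 and 58.4 under ICF, below the 60.4 to 66.8 of Sesn2. Prkab1 followed at 25.3 ± 1.11 in the control and 25.1 ± 2.28 with ICF, and Tsc2 at 12.2 in both (SD 0.245 and 0.34). The 4 lowest in the control were Sesn1 at 7.37 ± 0.344, Deptor at 6.56 ± 0.205, Tsc1 at 3.98 ± 0.122 and Sesn3 at 3.40 ± 0.135 CPM per kilobase. With ICF, Sesn1 at 6.36 ± 0.861 and Deptor at 5.36 ± 0.247 overlapped in single samples, and so did Sesn3 at 4.24 ± 0.137 and Tsc1 at 4.08 ± 0.17, so these neighbours cannot be ordered. These levels are a description, since exon length counts every annotated isoform.

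Per kilobase of exon, Sesn2 made up most of the sestrin mRNA. The 3 sestrins summed to 53.3, 56.0 and 54.6 CPM per kilobase without load and to 71.7, 77.8 and 74.8 under ICF, so the sum was higher in every ICF sample although Sesn1 was not. The share of Sesn2 in this sum was 79.4%, 80.2% and 81.3% in control samples, against 84.2%, 85.8% and 87.4% in ICF samples. These shares depend on exon lengths that count every annotated isoform, 3.475 kilobases for Sesn2 and 15.27 for Sesn3.

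The ratio of each sestrin to Ddit4 within a sample needs no scaling between samples. The log2 ratio of Sesn2 to Ddit4, taken from CPM, was -0.16, -0.05 and 0.16 in control samples and 1.70, 1.64 and 1.15 in ICF samples. The control ratios lay around 0 and every ICF ratio lay above 1. The ratios are not divided by gene length, so a value of 0 does not mark equal levels, and only their differences between samples are read. The mean difference was 1.51 with a standard error of 0.20. For Sesn3 the log2 ratio was -1.67, -1.58 and -1.46 without load and 0.04, -0.19 and -0.72 under it, differing by 1.29 (standard error 0.23). For Sesn1 the control values were -2.43, -2.43 and -2.31 and the ICF values -1.21, -1.47 and -2.26, differing by 0.75 (standard error 0.32). ICF replicate 3 had the lowest ratio of its group in all 3 cases, and for Sesn1 it differed from control replicate 3 by 0.05. None of the 3 ratios overlapped between groups, and how often ratios of other genes do so was not counted. Each gave p = 0.1 in an exact two-sided permutation test (0.1 also after adjustment over the 3). That is the smallest p that 3 samples against 3 allow, so the design cannot reach 0.05 here. All 3 ratios share Ddit4, which itself changed by -0.94 on the log2 scale, so they are not 3 separate results on sestrins. Sesn1 alone changed by -0.21, so its higher ratio reflects the larger fall of Ddit4.

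**Figure D3:**
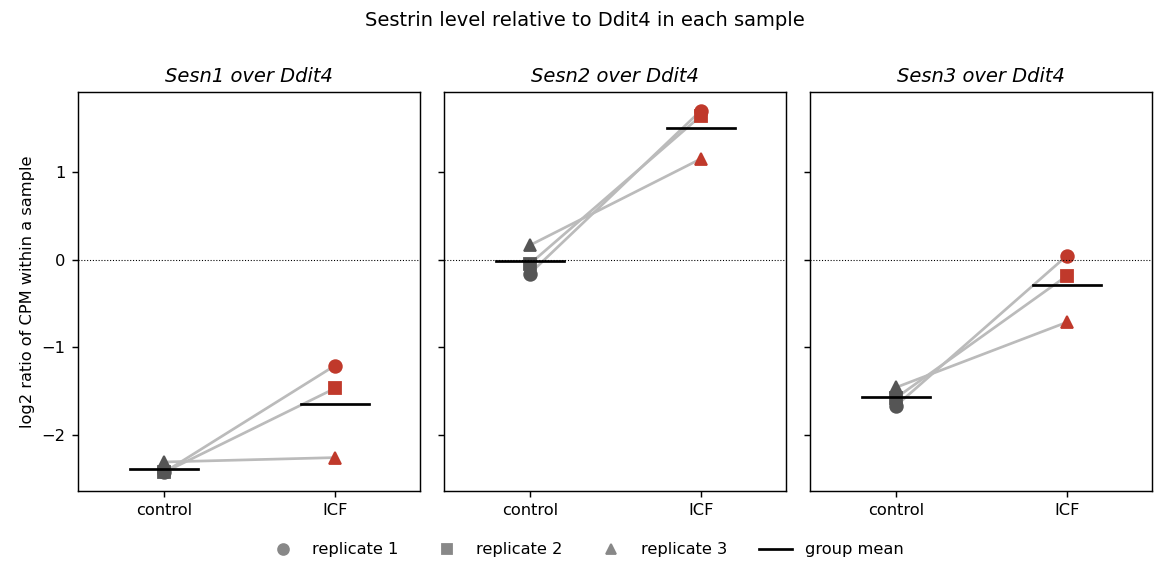
Log2 ratio of Sesn1, Sesn2 and Sesn3 to Ddit4 in CPM within each sample, for 3 control and 3 ICF samples, with lines joining samples of the same replicate number and bars for group means. All 3 ratios are higher with ICF, by mean differences of 0.75, 1.51 and 1.29, and number 3 has the flattest line in each panel. The 3 ratios share the fall of Ddit4.

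The regulators that the 8 genes are known for were measured in the same fit. Trp53, which encodes p53, had 437 ± 21.4 CPM in the control and 448 ± 30 CPM with ICF (SD, n = 3 each), a log2 fold change of 0.03 (adjusted p = 0.8 in edgeR). Trp73, which encodes its relative p73, rose from 3.05 ± 0.863 to 9.63 ± 2.03 CPM, a log2 fold change of 1.66 (adjusted p = 0.0041), and Trp63 did not pass the filter on low counts. Of the hypoxia factors, Hif1a had 139 ± 19 CPM in the control and 183 ± 23.8 with ICF, a log2 fold change of 0.39 that did not pass in edgeR (adjusted p = 0.074), but passed in DESeq2 (adjusted p = 0.014) and in edgeR with the replicate block (1.66e-07). Epas1, which encodes another hypoxia factor, had a log2 fold change of 0.12 (adjusted p = 0.5), and their partner Arnt had one of -0.19 (adjusted p = 0.095, and 0.0067 with the block). Neither Epas1 nor Arnt passed in DESeq2 (adjusted p = 0.59 and 0.065). Atf4 had a log2 fold change of -0.16 (adjusted p = 0.16, and 0.012 with the block), and Nfe2l2, the oxidative stress factor, one of 0.15 (adjusted p = 0.12, and 0.02 with the block). Foxo1 (adjusted p = 0.89) and Foxo3 (adjusted p = 0.5) were not called. Nr3c1, the glucocorticoid receptor gene, rose from 11 ± 1.72 to 18 ± 2.52 CPM, a log2 fold change of 0.70 (adjusted p = 0.022).

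Known targets of these factors, listed without the 8 genes, give the setting of the sestrins and Ddit4. These lists were written with earlier results of these data in view, so their directions are not independent evidence. Of 26 p53 targets, 18 rose and none fell, and the median of their log2 fold changes was 0.57. Zfp365, a genome stability gene, rose from 17.6 ± 0.956 to 51.6 ± 5.85 CPM (log2 fold change 1.55, adjusted p = 0.000231), and Trp53inp1, a p53-induced regulator of cell death and autophagy, rose from 135 ± 30.1 to 324 ± 91.1 CPM (log2 fold change 1.26, adjusted p = 0.009). The change of Sesn2 lay in the middle of this list, with 14 of the 26 targets above it, Sesn3 had 18 above it, and Sesn1 lay below all 26. At an unadjusted p under 0.05 in edgeR 2 of the targets were lower, as with the block, and none was called lower by DESeq2. Without ICF replicate 3, 19 rose, Bbc3, a cell death gene, being the addition (adjusted p = 0.036, against 0.078 with all samples).

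Of 24 HIF-1 targets, 23 fell and none rose, and the median of their log2 fold changes was -1.23. Ndufa4l2, a mitochondrial protein gene induced by low oxygen, went from 16.6 ± 7.17 to 0.788 ± 0.326 CPM (log2 fold change -4.41, adjusted p = 0.000892), and Adm, which encodes the vasodilator adrenomedullin, from 11.5 ± 4.05 to 0.681 ± 0.156 CPM (log2 fold change -4.08, adjusted p = 0.000542). The fall of Ddit4 was smaller than the median of this list, and 14 of the 24 targets fell further. No target was higher at an unadjusted p under 0.05 in edgeR, by DESeq2 or with the block. Without ICF replicate 3, 22 fell, and P4ha2, a collagen prolyl hydroxylase gene, was lost (adjusted p = 0.071, against 0.048 with all samples). In both HIF-1 targets named, control replicate 3 was the lowest control sample, as it was for Ddit4, at 8.45 CPM for Ndufa4l2 and 6.78 CPM for Adm.

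ATF4 targets, which include amino acid response genes, gave 4 falls and no rise among 20, and the list's median was -0.21 on the log2 scale. The largest were Chac1, a glutathione-degrading enzyme gene (log2 fold change -0.96, adjusted p = 0.0032), and Shmt2, a mitochondrial serine enzyme gene (log2 fold change -0.50, adjusted p = 0.0043). Sesn2 lay above all 20 ATF4 targets, and Ddit4 lay below 19 of them. With the block 14 of the 20 fell and 1 rose, DESeq2 gave 7 falls and no rise, and at an unadjusted p under 0.05 in edgeR 12 were lower and 1 higher. Without ICF replicate 3 there were again 4 falls, but Aldh18a1, a proline synthesis gene, was lost (adjusted p = 0.077, against 0.045) and Cth, a cysteine synthesis gene, gained (0.046, against 0.11). Of 14 FoxO targets 2 fell and none rose, Ccng2, a cyclin linked to cell cycle exit (log2 fold change -1.10, adjusted p = 0.000308), and Pdk4, a pyruvate dehydrogenase kinase gene (log2 fold change -0.95, adjusted p = 0.0091). The list's median was -0.13, and Sesn3 lay above 13 of the 14. With the block 6 of them fell and 1 rose, DESeq2 gave 2 falls, and at an unadjusted p under 0.05 in edgeR 5 were lower and none higher. Of 8 glucocorticoid targets 1 fell, the phosphatase gene Dusp1 (log2 fold change -0.70, adjusted p = 0.0033), with a median of -0.05, and with the block 2 fell.

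**Figure D4:**
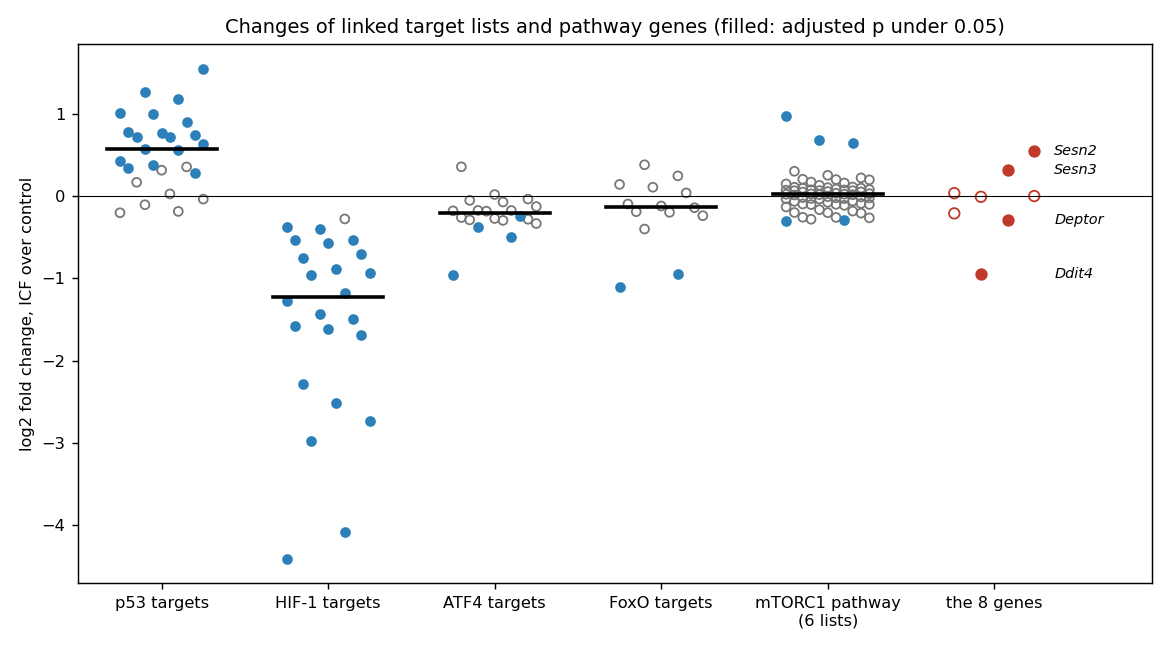
Log2 fold change of ICF over control for the genes of 4 target lists, of 6 pooled lists of mTORC1 pathway genes, and of the 8 genes, with a bar at each list's median and filled points for an adjusted p under 0.05 in edgeR. The p53 targets centre on 0.57 and the HIF-1 targets on -1.23, while the pathway genes centre on 0.02.

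Within replicate numbers, the p53 and HIF-1 lists can be set beside the 8 genes. The median log2 difference of the 26 p53 targets was 0.52, 0.47 and 0.66 in numbers 1, 2 and 3, and that of the 24 HIF-1 targets was -1.33, -1.21 and -0.92. Number 3 thus had the smallest fall of the HIF-1 targets and the smallest fall of Ddit4, but the largest rise of the p53 targets, while Sesn2 differed little by number. With 3 numbers this is a description only.

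**Figure D5:**
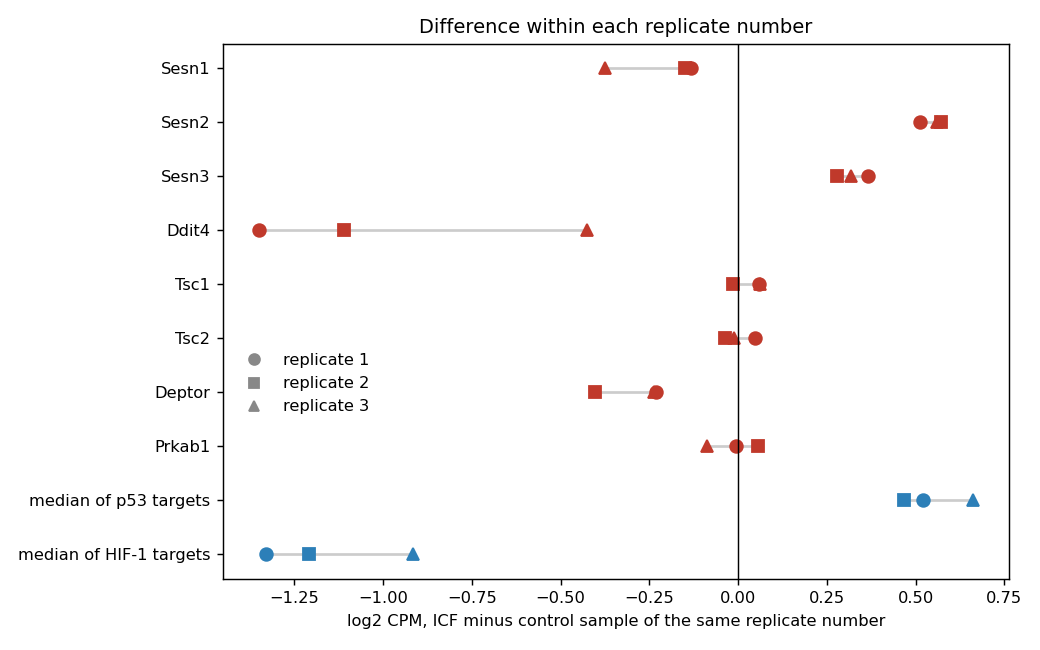
Log2 difference in CPM between the ICF and the control sample of each replicate number, for each of the 8 genes and for the medians of 26 p53 targets and 24 HIF-1 targets. The points of Sesn2 lie together near 0.5 to 0.6, while those of Ddit4 spread from -1.35 in number 1 to -0.43 in number 3.

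Other mTORC1 pathway genes were called about as often as genes in general. In 6 lists that together hold 70 other genes, 67 were tested, 3 rose and 2 fell, which is 7.46% called beside 7.85% of all genes tested, and the median log2 fold change was 0.02. With the replicate block 9 rose and 10 fell, which is 28.4% beside 29.9% of all genes. Without ICF replicate 3 there were 3 of each, since Seh1l, which encodes a GATOR2 subunit, passed as lower (adjusted p = 0.033, against 0.074 with all samples). None of the 10 genes listed for mTORC1 and mTORC2 was called. Nor was any of the 13 tested genes listed for KICSTOR and the GATOR complexes, of which sestrins bind GATOR2. The 9 tested genes of AMPK and its kinases had no call either. At an unadjusted p under 0.05 in edgeR these lists had 1, 3 and 0 genes, and DESeq2 called 0, 1 and 0. With the block they had 1 rise and 1 fall, 1 rise and 2 falls, and no call.

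The Rag GTPases and their lysosomal partners held 3 of the 5 calls. Rragb had control levels of 25.2, 24.7 and 23.1 CPM and ICF levels of 38.0, 37.7 and 38.9 CPM, a rise with a wide gap. Its edgeR log2 fold change of 0.65 had an error of 0.07 (adjusted p = 0.0015). Its close relative Rraga, named here after its values were seen, had control levels of 93.2, 90.4 and 91.2 CPM and ICF levels of 71.2, 75.1 and 78.6 CPM, a fall of -0.29 on the log2 scale (adjusted p = 0.025). These 2 genes encode alternative partners in the same heterodimer, and no possible 75-base read of either matched another gene. Rragd, which encodes a partner on the other side of that heterodimer, had control levels of 29.6, 29.2 and 37.0 CPM and ICF levels of 44.5, 45.2 and 63.5 CPM, so that replicate 3 was the highest in both groups. It rose by 0.68 on the log2 scale, with an error of 0.15 (adjusted p = 0.031). The 13 genes of this list had a median of 0.07, and with the block 4 rose and 1 fell.

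Among 8 genes of Rheb and the partners of the TSC complex, Ddit4l was called. It encodes the closest relative of Ddit4 and a restraint of mTORC1 as well, and it went the opposite way to Ddit4. Levels were 9.03, 8.43 and 10.3 CPM without load and 16.5, 15.5 and 22.4 CPM under ICF, without overlap. It rose by 0.97 on the log2 scale, with an error of 0.15 (adjusted p = 0.0083 in edgeR). The list's median was 0.00, and with the block 2 of the 8 rose and 2 fell. Replicate 3 had the highest Ddit4l level in both groups. Of 14 mTORC1 substrates and effectors 1 fell, Grb10, which encodes an adaptor that damps insulin signalling. Control samples had 486, 487 and 456 CPM and ICF samples 408, 399 and 350 CPM, a log2 fold change of -0.31 (adjusted p = 0.038), and with the block 1 of the 14 rose and 4 fell.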

How the data were processed

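RNA sequencing measured mRNA in 3 ICF and 3 control samples. The authors made strand-specific libraries, sequenced single reads on an Illumina NextSeq, trimmed them (Trimmomatic), aligned them (HISAT2) and assigned them to genes (HTSeq). The values that the authors deposited are counts per gene, and they were taken here as raw. For ICF replicate 3 this is in doubt, given the pattern of its counts described above. The submitters' processing notes also name FastQC, bcl2fastq 2.19 and DESeq2 and list the builds GRCm38 and hg38. Tool versions other than that, and whether counting used strand, are not given in the sources used here. The methods name a Ribospin II kit for the RNA and the labels an RNeasy kit.

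From these counts, edgeR 4.0.16 in R 4.3.3 tested 16729 genes (glmQLFit, glmQLFTest, TMM, filterByExpr, no covariate, Benjamini-Hochberg adjustment, threshold 0.05), and the p-values are adjusted over all of them. The 5 summary lines of each file, which hold 38% to 40.3% of its total, name no gene and were left out. CPM are TMM-scaled counts, standard errors are the log2 fold change divided by the root of F, and the tests were tried on simulated data. Counts of the 8 genes ranged from 620 to 7668. The sestrin ratios were compared by an exact permutation test in Python 3.11.15 with scipy 1.17.1. Names, coordinates and exon lengths came from GENCODE M21 (GRCm38), and all but Tsc2 and Deptor of the 8 genes have no 75-base stretch in common with another gene, where matches of Deptor cover 2.9%.

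Deviations from the group mean correlated across genes at r of 0.15 to 0.376 in the 3 same-numbered pairs and -0.343 to 0.263 in other pairs. These ranges overlap, and control replicate 1 was closer to ICF replicate 2 (0.263) than to ICF replicate 1 (0.15). The correlations therefore do not settle whether samples are paired by number. The labels give the number as a donor, so the block was run as an alternative. Samples of a group differed by more than counting noise if their counts are raw, and all were kept apart. For ICF replicate 3 this cannot be judged, since multiplied counts would also raise the difference. The members and lists were chosen with earlier results of these data known. Besides the 8 genes, the text names the listed regulators, up to 2 genes per list with the largest change among called genes averaging at least 50 counts, and the 3 genes most like Sesn2 and Ddit4 by Pearson r of log2 CPM among genes averaging at least 100 counts. Alternatives were DESeq2 1.42.0, RLE factors, no scaling factor, filters of at least 1 count in any sample or 10 in every sample, the replicate block, ICF replicate 3 divided by 4, a prior count of 0.5 in the ratios, and each sample left out. The block without number 3, and the list counts with the block and without ICF replicate 3, were added after the data were seen. Genes named because they change a call without ICF replicate 3 (Seh1l, Bbc3, P4ha2, Aldh18a1, Cth) were chosen after their values were seen. So were the markers Vim, Pdgfra and Col1a2.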

Additional observations from a re-analysis of the deposited data

How the results depend on the processing

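The 8 genes kept 2 rises and 2 falls under DESeq2, RLE factors, no scaling factor, both other filters and ICF replicate 3 divided by 4. With the replicate block, a pairing by number, Sesn1 also passed at a log2 fold change of -0.22, which gives 3 falls, and the block changed no other call among the 8 genes. Genes called over the whole table moved more, to 2445 higher and 2561 lower with the block and to 2162 and 2359 with the block and number 3 left out. DESeq2 gave 877 higher. With 1 sample left out, 85 to 724 genes were higher and 215 to 928 lower, the fewest without control replicate 2, and 1 to 2 of the 8 genes were higher and 0 to 2 lower. The log2 fold change then lay between -0.27 and -0.10 for Sesn1, 0.52 and 0.60 for Sesn2, 0.30 and 0.35 for Sesn3, -1.15 and -0.80 for Ddit4, 0.01 and 0.06 for Tsc1, -0.0164 and 0.0253 for Tsc2, -0.32 and -0.25 for Deptor, and -0.0593 and 0.0683 for Prkab1. Values near 0 changed sign for Tsc2 under DESeq2 (-0.0054), RLE factors (-0.0014) and the block (-0.000102), and for Prkab1 with no scaling factor (0.0198) and the block without number 3 (0.0251). The sestrin to Ddit4 differences lay between 0.53 and 1.05 for Sesn1, 1.41 and 1.69 for Sesn2, and 1.12 and 1.50 for Sesn3. The cause of these shifts was not tested. Counting alone gives an error of 1.47% to 3.38% of the mean in the control, beside an SD of 2.0% to 9.47%. There the 2 are close for Tsc1 (2.67% and 3.08%) and Tsc2 (1.69% and 2.0%). With ICF the counting error is 1.18% to 3.48%, if the counts of ICF replicate 3 are raw. The SD with ICF is 2.78% to 24.5%, the highest for Ddit4.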

Other observations

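Over the 6 samples, the genes whose log2 CPM followed Sesn2 most closely among 11917 genes averaging at least 100 counts were 2410131K14Rik (Pearson r of 0.998), B230118H07Rik (0.997) and Ubn1 (0.996), and 332 genes had an r above 0.95. The first of these, 2410131K14Rik, had a log2 fold change of 0.30 (adjusted p = 0.035 in edgeR), B230118H07Rik one of 0.42 (adjusted p = 0.022) and Ubn1, a histone chaperone subunit, one of 0.13 (adjusted p = 0.17). For Ddit4 they were Cldn7, a tight junction claudin (0.997), Gmnn, which encodes the replication licensing inhibitor geminin (0.996), and 2810002D19Rik (0.992), and 138 genes had an r above 0.95. Cldn7 had a log2 fold change of -0.45 (adjusted p = 0.03), Gmnn one of -0.23 (adjusted p = 0.07) and 2810002D19Rik one of -0.20 (adjusted p = 0.29). The 6 points of each correlation share the split into groups and the libraries, so they describe likeness of pattern only.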
